A study of Mus musculus with 4 samples.

Results

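Among 38316 cells of B16F10 tumours, sorted as live CD45+ CD3+ CD8+ cells, 370 made up a small population with transcripts of Klrg1, Cx3cr1 and S1pr5. A cell was a member if it had at least 500 genes, at most 10% mitochondrial UMIs (unique molecular identifiers, each standing for 1 captured transcript), at least 2 UMIs summed over Klrg1, Cx3cr1 and S1pr5, 0 Havcr2 UMIs and at most 1 UMI summed over Mki67, Top2a, Birc5 and Ube2c. The members are called Klrg1/Cx3cr1/S1pr5 cells, or members, below. The 5-prime droplet libraries came from 4 tumour samples, 2 labelled sgArid1a and 2 labelled sgScr. The name sgArid1a marks a guide RNA for the gene Arid1a, whose protein belongs to the BAF (SWI/SNF) remodellers of chromatin, and sgScr a scrambled guide. The mice of both groups were C57BL/6J, 6 to 8 weeks old, and the tumours were the transplantable melanoma line B16F10. Neither the cells that carried the guide nor whether replicates came from separate animals is given in the labels. A p-value here thus covers at most the spread of these 4 samples, some of which may be technical. There were 57 and 119 members in the sgArid1a samples and 97 and 97 in the sgScr samples.

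Killer T cells that have met antigen divide into fates that differ in lifespan and location. Cells with Klrg1 (an inhibitory lectin receptor), Cx3cr1 (the receptor of the chemokine fractalkine) and S1pr5 (a receptor for sphingosine 1-phosphate) are known from acute infection as terminally differentiated effectors that circulate in blood. The transcription factors T-bet (Tbx21) and Zeb2 drive that fate, and such cells keep granzymes and perforin for killing. In tumours, CD8 T cells under lasting antigen exposure more often take an exhausted state with Pdcd1 (PD-1), Lag3, Tox and Havcr2 (Tim-3), a gene whose absence was part of the rule used here.

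The rule chose the members on 3 genes that are themselves scarce, so most members passed it narrowly. Klrg1 (ENSMUSG00000030114, chr6:122270596-122282882, minus strand, GRCm38) had 185 and 157 CPM in the sgArid1a and 273 and 251 CPM in the sgScr members, in CPM, counts per 1000000 UMIs of the cells summed. Cx3cr1 (ENSMUSG00000052336, chr9:119901616-120069879, minus strand) had 365 and 276 CPM in the sgArid1a and 332 and 277 CPM in the sgScr members. S1pr5 (ENSMUSG00000045087, chr9:21242912-21248443, minus strand) had 147 and 161 CPM in the sgArid1a and 261 and 259.8 CPM in the sgScr members. S1pr5 and Klrg1 were lower in both sgArid1a samples than in both sgScr samples and Cx3cr1 overlapped, which is a description, since these UMIs chose the cells. Exactly 2 marker UMIs were found in 77.2 and 65.5% of the sgArid1a members and 49.5 and 50.5% of the sgScr members. Only 28 of the 370 members had UMIs of all 3 genes and 182 had UMIs of at least 2. Cx3cr1 was the sole marker gene in 102 members, Klrg1 in 49 and S1pr5 in 37, and 173 members had S1pr5 UMIs with or without the other genes. Cx3cr1 was the sole gene in 38.6 and 36.1% of the sgArid1a and 19.6 and 18.6% of the sgScr members, whereas S1pr5 UMIs were in 31.6 and 42.9% of the sgArid1a and 54.6 and 52.6% of the sgScr members.

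Around the threshold, Gzma and Zeb2 differed with the number of marker UMIs, while Gzmb and Tbx21 did not do so in every sample. Gzma had 1751 and 663 CPM in sgArid1a and 775 and 688 CPM in sgScr members with exactly 2 marker UMIs. In the 874 cells with exactly 1 marker UMI, which are not members, it had 418 and 282 CPM in sgArid1a and 238 and 172 CPM in sgScr. In cells with 0 marker UMIs it had 55.8 and 42.8 CPM in sgArid1a and 21.0 and 18.7 CPM in sgScr. Gzma was thus higher just inside than just outside the threshold in all 4 samples, and Zeb2 did the same, with 104 and 146 CPM in sgArid1a and 124 and 168 CPM in sgScr members with 2 marker UMIs. Cells with 1 marker UMI had 59.4 and 66.2 CPM of Zeb2 in sgArid1a and 61.9 and 74.9 CPM in sgScr. Members with 3 or more marker UMIs had 1196 and 2441 CPM of Gzma in sgArid1a and 2022 and 1556 CPM in sgScr, and 60.8 and 298 CPM of Zeb2 in sgArid1a and 377 and 292 CPM in sgScr. Both genes were thus lower with 3 or more than with 2 in the first sgArid1a sample and higher in the other 3 samples. Gzmb had 417 and 407 CPM in sgArid1a and 393 and 330.2 CPM in sgScr members with 2 marker UMIs, against 547 and 424 CPM in sgArid1a and 223 and 215 CPM in sgScr cells with 1, so it was lower just inside the threshold in both sgArid1a samples. Tbx21 was lower just inside in the second sgScr sample, at 106 CPM with 2 marker UMIs, against 112 CPM with 1, and higher in the other 3 samples.

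The label of an effector CD8 T cell was checked against defining markers. Cd3e UMIs were in 94.1% of members and Cd8a UMIs in 75.7%, at median depths of 2661 and 3394 UMIs in sgArid1a and 2780 and 3008 UMIs in sgScr members. Gzma, a part of the label that the rule did not use, had UMIs in 35.9% of members, against 4.03% of the other Havcr2-zero non-cycling cells and 4.70% of the deeper Havcr2-positive cells. With every cell thinned to 1500 UMIs the 3 shares were 30.9, 2.52 and 2.78%. Zeb2 UMIs were in 42.2% of members and 2.72% of the other cells. Most members thus had no Gzma or no Zeb2 UMI, so the population is named here by its rule. Ncr1, which marks natural killer cells, had UMIs in 1 member and Trdc, of the gamma-delta receptor, in 2. The 10 genes of natural killer cells and Fc receptors summed to 534 and 663 CPM in sgArid1a and 282 and 468 CPM in sgScr members, against 728 and 674 CPM in sgArid1a and 471 and 486 CPM in sgScr other cells, and Fcgr3 was at 0 in members. Of the 8 tested against the other cells, 2 rose (Klrb1c and Tyrobp, a signalling adaptor of natural killer and myeloid cells) and 2 fell (Cd7 and Xcl1). Tyrobp had 0 and 46.7 CPM in the sgArid1a and 11.9 and 8.66 CPM in the sgScr members, against 7.16 and 9.15 CPM in sgArid1a and 2.01 and 2.33 CPM in sgScr other cells, higher in 3 of 4 samples (log2 difference 1.72 ± 0.40 (SE), edgeR adjusted p = 3.07e-04). Its log2 difference from Havcr2-positive cells was 3.02 ± 0.54 (SE), edgeR adjusted p = 7.03e-05.

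Markers of other cell types were low. Of 12 macrophage and monocyte genes, 7 were at 0 in members (Lyz2, C1qa, C1qc, Adgre1, Fcgr1, Spi1 and Csf3r), and the list summed to 174 and 153 CPM in sgArid1a and 122 and 127 CPM in sgScr members, against 129 and 132 CPM in sgArid1a and 100.2 and 105 CPM in sgScr other cells. Of 9 B cell and MHC class II genes, Cd79a, Ms4a1 and H2-Aa were among those at 0, and the sum was 158 and 189 CPM in sgArid1a and 187 and 109.7 CPM in sgScr members. Pmel, Tyr, Tyrp1, Dct and Sox10, 5 of the 7 melanoma genes, were at 0 as well. Foxp3 and Cd4, which mark regulatory and helper T cells, did not follow this pattern. Foxp3 or Cd4 UMIs were in 1 of 57 and 8 of 119 sgArid1a members and in 1 of 97 and 0 of 97 sgScr members, or 1.75 and 6.72% of the sgArid1a and 1.03 and 0% of the sgScr members. The count of 0 allows a share of up to 3.09%. In the other cells the shares were 0.355 and 0.380% in sgArid1a and 0.289 and 0.295% in sgScr. The comparisons of members between the groups and with the other cells, and of the group difference in both, were repeated without these cells. Those with Havcr2-positive cells and between subsets of members were not.

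The 4 libraries held 39713825 and 81916795 UMIs in sgArid1a and 35881501 and 32484099 UMIs in sgScr, over all genes and barcodes, so the second sgArid1a library was the deepest. The members' share of this was 183529 and 535287 UMIs in sgArid1a and 337208 and 346388 UMIs in sgScr. The first sgArid1a sample therefore gives the least precise values. Between 74 and 218 cell barcodes were shared by each pair of libraries among the kept cells, and 0 among members.

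Members were a smaller share of the cells in both sgArid1a samples than in both sgScr samples. They were 0.532% (95% Wilson interval 0.411 to 0.689) and 0.930% (0.778 to 1.11) of the kept cells in sgArid1a, against 1.27% (1.04 to 1.55) and 1.35% (1.11 to 1.65) in sgScr. These intervals cover counting error only. The means were 0.731 ± 0.282% in sgArid1a and 1.31 ± 0.0597% in sgScr (SD, n = 2 each), and the exact two-sided permutation test gave p = 0.33, the smallest value that 2 against 2 samples allow. With all cells thinned to 1500 UMIs before the rule was applied, the shares were 0.235 and 0.393% in sgArid1a and 0.765 and 0.635% in sgScr. The groups did not overlap in either form. Before the exclusions for Havcr2 and cycling, cells with at least 2 marker UMIs were 1.63 and 3.14% of the sgArid1a and 2.69 and 2.85% of the sgScr cells, and these ranges overlapped. Of those cells, 57.1 and 59.4% in sgArid1a and 40.3 and 36.8% in sgScr were over the limit on cycle genes, and 44.6 and 56.9% in sgArid1a and 41.3 and 41.7% in sgScr had Havcr2 UMIs. The lower share of members in sgArid1a thus stands beside a higher share of marker-bearing cells that the exclusions removed, whose part in it was not tested.

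**Figure D1:**
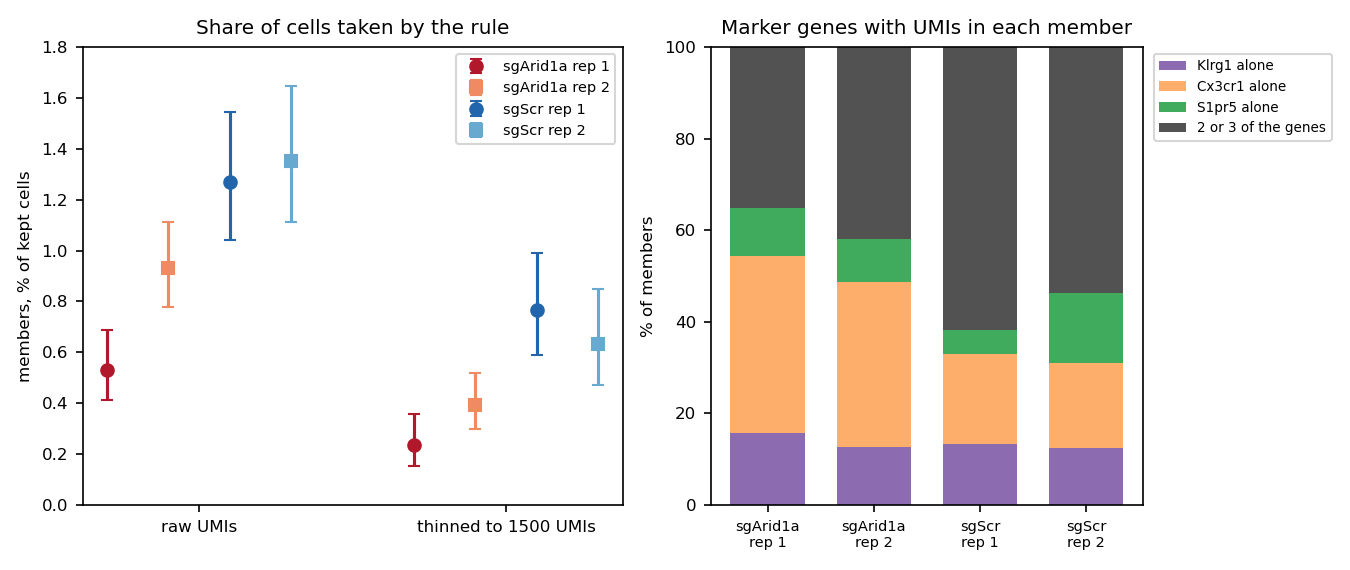
Left, members as a percentage of kept cells with 95% Wilson intervals, 1 point per sample, from the raw UMIs and from cells thinned to 1500 UMIs; right, the percentage of members with each marker gene alone or with 2 or 3 of the genes. Members made up 0.532 and 0.930% of cells in sgArid1a, both below the 1.27 and 1.35% in sgScr.

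To describe what else these cells expressed, UMIs were summed per sample over the members and over the 32069 other Havcr2-zero non-cycling cells, and the sums were compared within samples. Genes of killing, migration and the effector fate were higher in members, and genes of naive and memory cells were lower. With edgeR's quasi-likelihood test, 1370 of 11436 genes passed an adjusted p of 0.05, or 12.0% (584 higher, 5.11%, and 786 lower, 6.87%), of which 1096 changed the same way in all 4 samples. The median log2 difference over all genes tested was -0.075. DESeq2 called 473 higher and 347 lower, on a scale whose median stood at 0.32, and the named genes with a DESeq2 value kept their direction. The 3 rule genes are left out of what follows. The fit estimated 1 spread shared by all genes, so its p-values are very small, and the number of samples that show a direction is the plainer guide. SE is the fitted standard error of a log2 difference. In a sum, fewer cells with a transcript and less RNA per cell cannot be told apart.

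Granzymes and perforin, which kill target cells, were higher in members, with the largest difference for Gzma. Gzma (ENSMUSG00000023132, chr13:113093825-113100981, minus strand) encodes granzyme A, a trypsin-like protease of cytotoxic granules, and had 1602 and 1209 CPM in the sgArid1a and 1364 and 1109 CPM in the sgScr members, against 66.9 and 52.3 CPM in sgArid1a and 26.7 and 22.8 CPM in sgScr other cells. Every member value was above every value of the other cells, a log2 difference of 4.82, given as a description because Gzma is among the genes that marked the population. Gzmb, whose protease cleaves caspases in the target, had 550.3 and 450.2 CPM in the sgArid1a and 371 and 344 CPM in the sgScr members, against 142 and 113 CPM in sgArid1a and 29.8 and 39.3 CPM in sgScr other cells. Again no member value overlapped the other cells (log2 difference 2.35 ± 0.10 (SE), edgeR adjusted p = 4.49e-123). Gzmk averaged 308 ± 64.7 CPM in members and 93.6 ± 10.2 CPM in other cells (SD over 4 samples; log2 difference 1.46 ± 0.10 (SE), edgeR adjusted p = 2.24e-43). Perforin (Prf1), which forms the pore, averaged 192 ± 31.6 CPM in members and 55.4 ± 14.5 CPM in other cells, a log2 difference of 1.57 ± 0.12 (SE), edgeR adjusted p = 9.28e-36. Gzmm, Nkg7 (a granule membrane protein) and Fasl (the death ligand) rose by log2 1.53, 1.09 and 1.84. Of 15 cytotoxic granule genes tested, 12 rose and 0 fell, with a median of 1.09.

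The start regions of 3 granzyme genes are printed because these genes separated members from the other cells. Each runs from 250 bases before to 50 bases after the gene start in RefSeq (build GRCm38.p6, all on the minus strand), written 5′ to 3′, with capitals for motifs found by search. Every motif was searched on both strands. The E-box, which ZEB factors bind, was spelled CAGGTG. The motif of the Runx factors was spelled TGTGGTT. That of the T-box factors, among them T-bet, was spelled GGTGTGA.
Gzma chr13:113100932-113101231: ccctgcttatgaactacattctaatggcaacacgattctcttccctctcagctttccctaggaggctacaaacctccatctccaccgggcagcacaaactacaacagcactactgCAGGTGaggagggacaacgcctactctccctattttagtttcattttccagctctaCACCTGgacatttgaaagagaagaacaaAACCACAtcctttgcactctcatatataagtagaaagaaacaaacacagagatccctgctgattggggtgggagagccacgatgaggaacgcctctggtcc
Gzmk chr13:113180916-113181215: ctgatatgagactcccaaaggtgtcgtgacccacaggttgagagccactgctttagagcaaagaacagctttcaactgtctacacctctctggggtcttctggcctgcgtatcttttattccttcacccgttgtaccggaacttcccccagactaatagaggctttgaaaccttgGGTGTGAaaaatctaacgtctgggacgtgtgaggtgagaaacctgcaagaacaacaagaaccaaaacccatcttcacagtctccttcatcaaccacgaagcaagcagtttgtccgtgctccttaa
Gzmb chr14:56262285-56262584: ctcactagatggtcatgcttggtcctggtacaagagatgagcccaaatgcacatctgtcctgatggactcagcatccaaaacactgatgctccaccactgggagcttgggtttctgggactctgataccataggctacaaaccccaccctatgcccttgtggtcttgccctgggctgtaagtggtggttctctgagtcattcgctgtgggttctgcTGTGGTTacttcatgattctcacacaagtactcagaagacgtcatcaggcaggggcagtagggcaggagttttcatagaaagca
The Gzma window held E-boxes that begin 135 and 79 bases before the gene start and a Runx motif that begins 51 bases before it. The Gzmk window held a T-box motif 75 bases before the start, and the Gzmb window a Runx motif 34 bases before it. Of all 32851 windows of this length, 20.2% held the E-box, 5.27% the Runx and 3.98% the T-box motif. No motif search is reported for the windows of Cx3cr1, S1pr5 and Zeb2. The letters are a description of sequence and not of binding.

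Transcription factors of the effector fate were higher and those of the memory fate lower. Zeb2 (ENSMUSG00000026872, chr2:44983632-45117395, minus strand) had 92.6 and 192 CPM in the sgArid1a and 243 and 228 CPM in the sgScr members, against 13.8 and 11.1 CPM in sgArid1a and 6.50 and 7.45 CPM in sgScr other cells. The lowest of these member values, in the first sgArid1a sample, was still above every value of the other cells, and the log2 difference of 4.14 is a description for the same reason as that of Gzma. Tbx21 (T-bet) had 136 and 153 CPM in the sgArid1a and 169 and 165 CPM in the sgScr members, against 48.6 and 52.7 CPM in sgArid1a and 33.0 and 35.5 CPM in sgScr other cells, without overlap (log2 difference 1.65 ± 0.13 (SE), edgeR adjusted p = 8.77e-33). Prdm1 (Blimp1), Id2, Rora, Bhlhe40 and Hopx rose by log2 2.13, 1.20, 1.24, 1.67 and 0.76. Tcf7, which encodes TCF1 and keeps memory and progenitor cells, had 98.1 and 159 CPM in the sgArid1a and 187 and 234 CPM in the sgScr members, against 309 and 359.9 CPM in sgArid1a and 497 and 491 CPM in sgScr other cells. All 4 member values were below all values of the other cells (log2 difference -1.52 ± 0.11 (SE), edgeR adjusted p = 1.57e-41). Lef1, Satb1, Bach2 and Id3 fell by 1.68, 1.69, 1.98 and 2.31 on the log2 scale. Eomes did not pass (0.38 ± 0.18 (SE), edgeR adjusted p = 0.19). Of 28 transcription factors tested, 9 rose and 9 fell. Prdm1 and Bhlhe40 were not called with thinned cells, at log2 0.79 and 0.88.

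Receptors that steer cells between lymph node, blood and tissue moved apart. Ccr7, which brings naive and central memory cells into lymph nodes, averaged 69.7 ± 24.0 CPM in members and 375 ± 123 CPM in other cells (log2 difference -2.79 ± 0.14 (SE), edgeR adjusted p = 1.72e-90). The classes did not overlap. Klf2 (ENSMUSG00000055148, chr8:72319033-72321656, plus strand), a factor that activates S1pr1, had 441 and 841 CPM in the sgArid1a and 934 and 797 CPM in the sgScr members, against 423 and 562 CPM in sgArid1a and 778 and 770.1 CPM in sgScr other cells, which overlap (log2 difference 0.0060 ± 0.09 (SE), edgeR adjusted p = 0.983). S1pr1, the receptor that lets T cells leave tissue, was lower by a log2 difference of -0.55 ± 0.13 (SE), edgeR adjusted p = 2.72e-04, in 3 of 4 samples, and was not called with thinned cells (-0.46) with at least 3 marker UMIs (-0.33) or with at least 2 marker genes (-0.47). S1pr4 was higher (log2 difference 0.45 ± 0.12 (SE), edgeR adjusted p = 0.00241) and Cd69, which holds cells in tissue by binding S1pr1, was lower (-0.86 ± 0.13 (SE), edgeR adjusted p = 9.88e-10). Among chemokine receptors, 5 of 8 rose, with Ccr2 at log2 1.87 and Cxcr6 at 1.05, and Ccr9, the gut-homing receptor, fell by 2.54. Cxcr6 was not called with thinned cells (0.49).

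Adhesion and cytoskeletal genes rose as groups. Of 14 integrin and adhesion genes tested, 8 rose and 0 fell, with a median of 0.76. Itga4, which pairs with Itgb1 in the receptor VLA-4, had 278 and 366 CPM in the sgArid1a and 658 and 586 CPM in the sgScr members, against 198 and 197 CPM in sgArid1a and 236 and 262 CPM in sgScr other cells (log2 difference 0.81 ± 0.09 (SE), edgeR adjusted p = 5.24e-17). Member values were above all values of the other cells. Itgb1, Itgb2 and Itgal rose by log2 0.95, 1.19 and 0.90. Itgam, which marks natural killer cells and some effector T cells, was called at 3.10 on at most 5.93 CPM in a member sum. It was no longer called without the first sgArid1a (2.96), the second sgArid1a (2.88) or the first sgScr sample (2.62). Of 16 S100, annexin and actin-linked genes, 15 rose and none fell, with Lgals3 (galectin 3) at log2 2.02, Lgals1 at 1.84 and S100a4 at 1.68. With thinned cells S100a4 stood at 0.87.

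Most killer lectin receptors tested were higher in members, while those of the Ly49 family ran both ways. Klrb1c (NK1.1) had 27.2 and 59.8 CPM in the sgArid1a and 38.6 and 72.2 CPM in the sgScr members, against 7.57 and 5.77 CPM in sgArid1a and 5.04 and 4.75 CPM in sgScr other cells, without overlap (log2 difference 2.96 ± 0.28 (SE), edgeR adjusted p = 4.05e-23). Klre1, Klrc1 (NKG2A) and Klrk1 (the activating receptor NKG2D) rose by log2 2.34, 1.64 and 1.34. Of 13 lectin receptors tested, 8 rose, and 3 fell. Of the Ly49 family, Klra8 (3.36) and Klra9 (1.78) rose, on sums that reached 0 in some samples, whereas Klra1, Klra6 and Klra7 fell, by 1.84, 1.94 and 2.16 on the log2 scale. Klra8 was higher in 2 of 4 samples, Klra9 in 3 of 4, and Klra1 and Klra7 were lower in 3 of 4. Ly49 genes are close copies of each other, so counts between them are uncertain. Kcnj8, a pore subunit of ATP-sensitive potassium channels, had 21.8 and 80.3 CPM in the sgArid1a and 122 and 115 CPM in the sgScr members, against 11.9 and 15.3 CPM in sgArid1a and 10.9 and 10.5 CPM in sgScr other cells (log2 difference 2.60 ± 0.21 (SE), edgeR adjusted p = 5.30e-34). Smpdl3b, a phosphodiesterase, rose by 2.10, and Mt1, a metallothionein, by 2.09. Mt1 was not called with thinned cells (1.55).

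Naive and memory genes fell together. Of 17 tested, 14 fell and 1 rose, with a median of -1.68. Il7r, the interleukin 7 receptor that sustains naive and memory T cells, had 212 and 245 CPM in the sgArid1a and 347 and 404 CPM in the sgScr members, against 553 and 518 CPM in sgArid1a and 913 and 885 CPM in sgScr other cells (log2 difference -1.49 ± 0.10 (SE), edgeR adjusted p = 3.33e-47). The highest member value was below the lowest of the other cells. The gene that rose was Dtx1, a regulator of Notch signalling, by log2 0.92. The largest falls outside the lists were Tmem108, Rflnb, Treml2, Sh3bp5 and Socs3, by 3.15, 2.75, 2.67, 2.58 and 2.54 on the log2 scale, beside Igfbp4 at -2.68. Of 11 quiescence genes, 7 fell and none rose, Tsc22d3 (the glucocorticoid-induced GILZ) by 1.10. Of 24 interferon-gamma response genes tested, 10 fell and 1 rose, while of 28 type I interferon-stimulated genes 2 rose and 3 fell. Isg15 did not pass (0.18 ± 0.14 (SE), edgeR adjusted p = 0.488).

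Cytokines and inhibitory receptors were higher as well, but several of these calls depended on how members were chosen and on depth. Ccl5, a chemokine that attracts T cells and that memory cells make quickly from stored transcripts, had 15687 and 19449 CPM in the sgArid1a and 28199 and 27192 CPM in the sgScr members, against 6535 and 6442 CPM in sgArid1a and 4392 and 4571 CPM in sgScr other cells. The classes did not overlap (log2 difference 1.77 ± 0.11 (SE), edgeR adjusted p = 2.75e-59). Ccl4, Ccl3 and Ifng rose by log2 1.72, 1.25 and 1.28, and Il18rap and Il10ra, receptors of interleukins 18 and 10, by 1.44 and 1.02. Of 17 inhibitory receptor and exhaustion genes tested, 11 rose and none fell, with a median of 1.01. Lag3, Tigit, Pdcd1, Tox and Tnfrsf9 rose by log2 1.44, 1.24, 0.88, 0.87 and 1.16. With members limited to the 182 cells that held at least 2 of the 3 marker genes, none of these 5 was called, at 0.62, 0.23, -0.18, 0.21 and 0.25, and neither were Ccl3 (0.66) and Ifng (0.78). All cells were also thinned to 1500 UMIs before the rule was applied. The rule then took 21 and 49 sgArid1a and 57 and 44 sgScr cells, so depth and the choice of cells changed together. None of the 7 genes was called there either, and the sign turned for Pdcd1 (-0.29) and Ccl3 (-0.19). Lag3, Tigit, Tox, Tnfrsf9 and Ifng stood at 0.079, 0.26, 0.75, 0.47 and 0.84. In the members with at least 2 marker genes Gzma stood at 5.40, Gzmb at 2.47 and Tbx21 at 1.91.

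**Figure D2:**
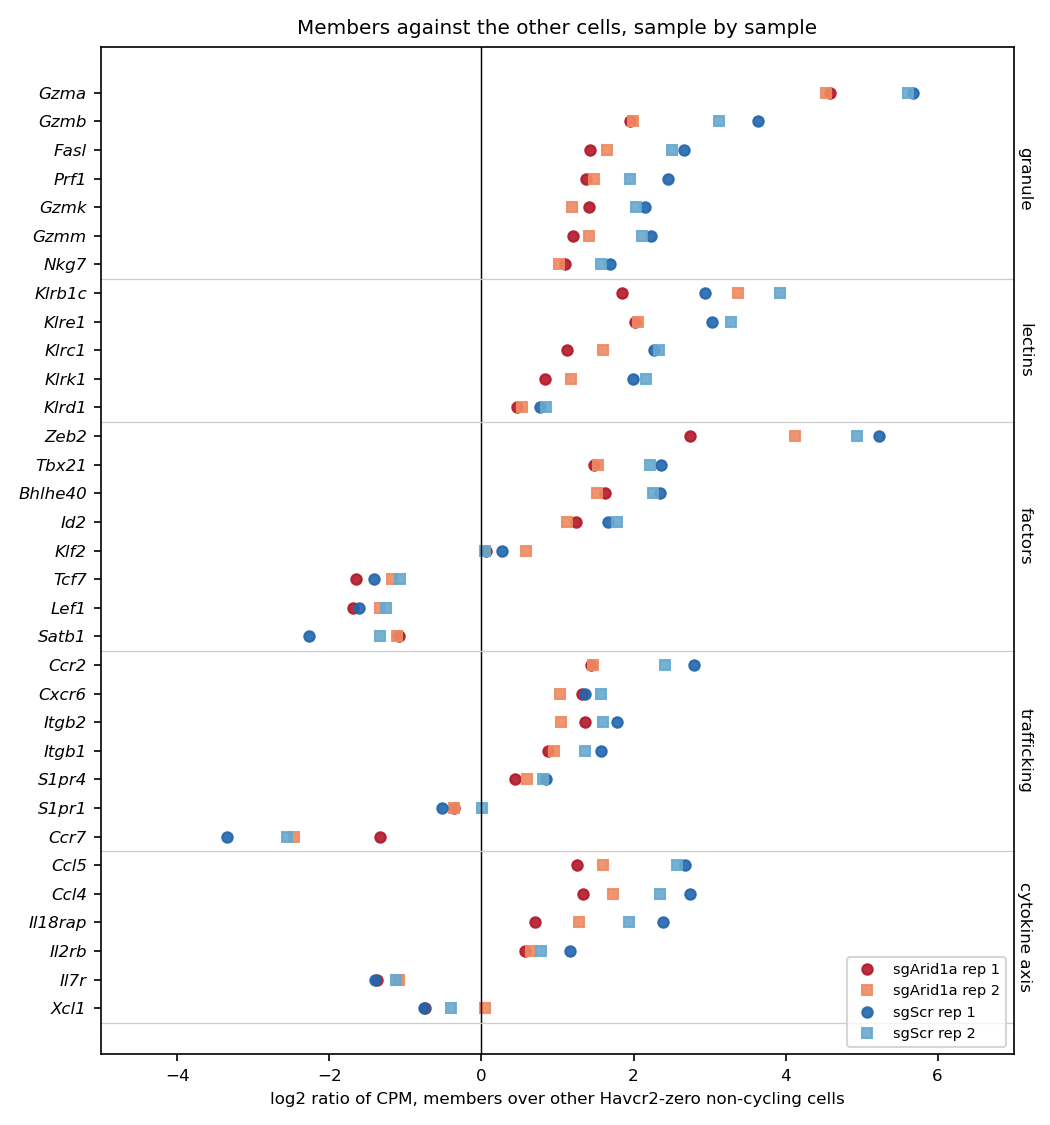
Log2 ratio of members over the other Havcr2-zero non-cycling cells for the named genes, 1 point per sample, from CPM, grouped by role. Gzmb, Tbx21 and Ccl5 lay above 0 and Ccr7 and Tcf7 below 0 in all 4 samples.

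Members were next set against the 1532 Havcr2-positive non-cycling cells, which have transcripts of the exhaustion gene that the rule excluded. The Havcr2-positive cells were deeper, at median depths of 4983.5 and 8195 UMIs in sgArid1a and 6612 and 6362 UMIs in sgScr. Of 8325 genes tested, 1574 were called by edgeR (18.9%), 731 higher (8.78%) and 843 lower (10.1%) in members, with a median over all genes of 0.015. Without the second sgArid1a sample 987 were called. The genes named below as changed in this comparison kept their call without each sample in turn.

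Both classes held granzymes, but most of those tested differed in level. Gzmk did not pass (log2 difference 0.027 ± 0.12 (SE), edgeR adjusted p = 0.917). Gzma averaged 1321 ± 215 CPM in members and 35.9 ± 12.7 CPM in Havcr2-positive cells (log2 difference 5.12), and Gzmm averaged 71.3 ± 18.5 CPM in members and 6.79 ± 5.41 CPM in Havcr2-positive cells (3.44 ± 0.29 (SE), edgeR adjusted p = 1.56e-11). Gzmb had 550.3 and 450.2 CPM in the sgArid1a and 371 and 344 CPM in the sgScr members, against 979.6 and 995 CPM in sgArid1a and 714 and 764 CPM in sgScr Havcr2-positive cells, a log2 difference of -1.08 ± 0.09 (SE), edgeR adjusted p = 5.43e-12. No member value reached those of the Havcr2-positive cells. Gzmd, Gzme and Gzmf had no UMI in any member sum and Gzmc 2, so no fold is given for the first 3; in Havcr2-positive cells Gzmf had 112 and 193 CPM in sgArid1a and 88.1 and 2.46 CPM in sgScr. Prf1 was also lower in members (log2 difference -1.38 ± 0.12 (SE), edgeR adjusted p = 3.62e-11). Of 17 cytotoxic granule genes tested, 5 were higher and 10 lower in members.

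Several genes of recirculation were higher in members than in Havcr2-positive cells. Of 8 egress and homing genes tested, 5 were higher and 1 lower in members. Ccr7 did not pass (log2 difference -0.016 ± 0.23 (SE), edgeR adjusted p = 0.978). Klf2 had 30.8 and 68.6 CPM in sgArid1a and 90.9 and 66.5 CPM in sgScr Havcr2-positive cells, all below the lowest member value of 441 CPM (log2 difference 3.52 ± 0.10 (SE), edgeR adjusted p = 4.47e-25). S1pr1 averaged 115 ± 38.4 CPM in members and 18.2 ± 11.7 CPM in Havcr2-positive cells (2.66 ± 0.21 (SE), edgeR adjusted p = 6.51e-12). S1pr4, Klf3 and Itgb7, a subunit of gut-homing integrins, rose by log2 1.38, 3.17 and 2.31. Of 16 naive and memory genes tested 10 were higher and none lower, among them Il7r (1.93) and Tcf7 (1.92). Cd69, which holds cells in tissue by opposing S1pr1, was higher in members as well (0.58 ± 0.15 (SE), edgeR adjusted p = 0.0041). For 11 quiescence genes 8 were higher and none lower. In every sample Il7r and Tcf7 were thus lowest in Havcr2-positive cells, intermediate in members and highest in the other cells, while Klf2 overlapped between members and the other cells.

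Inhibitory receptors and inflammatory chemokines ran the other way. Of 16 inhibitory receptor and exhaustion genes tested, none was higher and 12 were lower in members, with a median of -1.34. Havcr2, itself an exhaustion gene, split the classes, so the choice of cells favoured this direction. The comparison with the deeper Havcr2-positive cells was not repeated with thinned cells. Pdcd1 had 267 and 228 CPM in the sgArid1a and 214 and 211 CPM in the sgScr members, against 551 and 631 CPM in sgArid1a and 684 and 694 CPM in sgScr Havcr2-positive cells (log2 difference -1.55 ± 0.10 (SE), edgeR adjusted p = 4.09e-14). Lag3, Tigit and Tox fell by 1.54, 1.38 and 1.29 on the log2 scale. Ccl3, Ccl4, Xcl1, Ccl1 and Ifng fell by 3.36, 2.22, 2.26, 3.61 and 2.38, whereas Ccl5 rose by 1.50. Serpine2, a protease inhibitor, and Tff1, a secreted trefoil peptide, fell by 3.98 and 3.91. Zeb2, Tbx21 and Klrb1c were higher in members than in Havcr2-positive cells too, by log2 2.27, 1.12 and 5.45, as were Kcnj8 (4.94), Dtx1 (4.10) and Rasgrp2, an activator of the integrin switch Rap1 (2.75). Of 25 type I interferon-stimulated genes 16 were higher in members and 1 lower. Cxcr6, the receptor of Cxcl16, was lower (-0.75) and Cxcr3 higher (0.92).

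**Figure D3:**
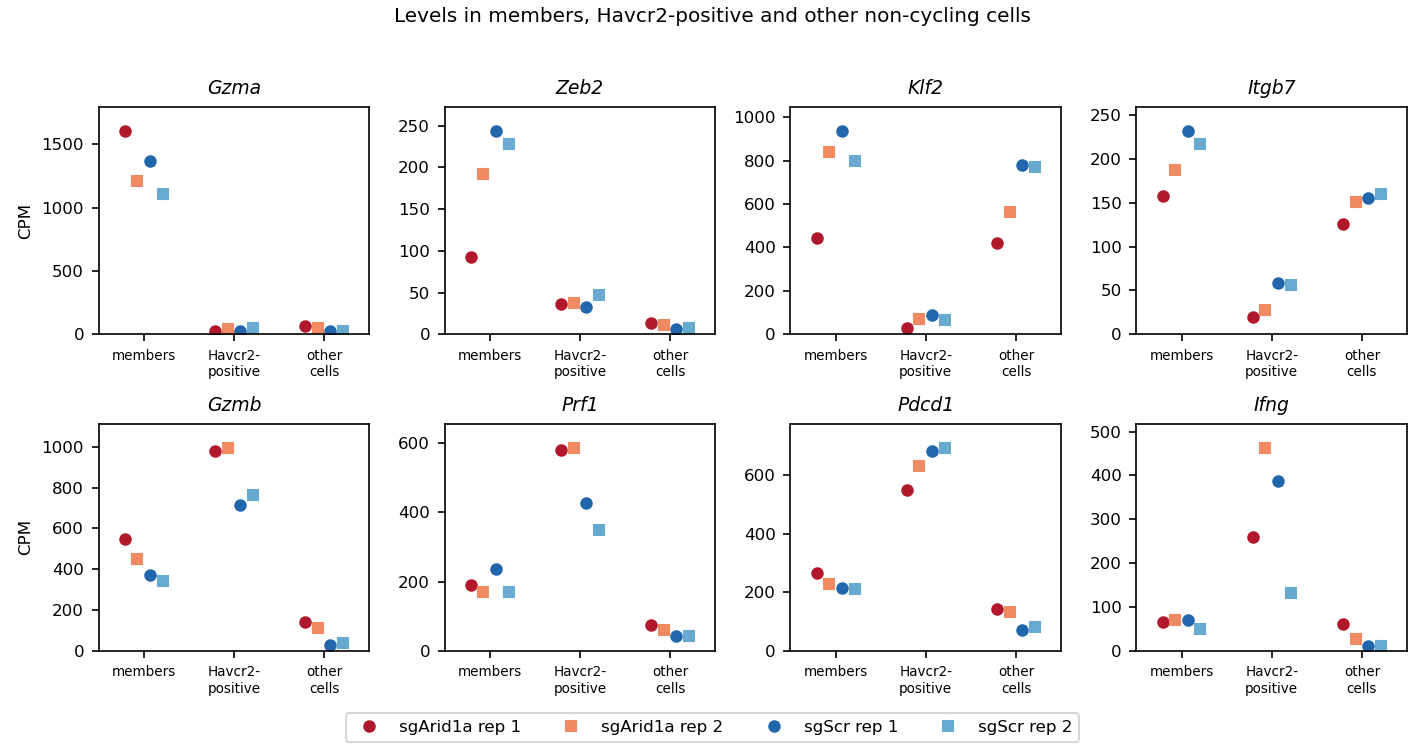
CPM of 8 genes on linear axes in members, Havcr2-positive and other non-cycling cells, 1 point per sample. Gzma and Zeb2 were highest in members in every sample, Gzmb and Pdcd1 highest in Havcr2-positive cells, and Klf2 low in Havcr2-positive cells.

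The members were not uniform. To see how they differed by marker gene, the 173 members with S1pr5 UMIs (18 and 51 in sgArid1a, 53 and 51 in sgScr) were set against the 102 with Cx3cr1 alone (22 and 43 in sgArid1a, 19 and 18 in sgScr), a comparison added after the data had been seen. Members with S1pr5 UMIs had more Zeb2, Klf2 and Klrb1c transcripts, and members with Cx3cr1 alone more Pdcd1, Tox and Xcl1. The T cell genes Cd8a, Cd3g and Cd3d were lower with S1pr5, by 0.76, 0.52 and 0.45 on the log2 scale, in 4 of 4 samples each. Of 10 T cell genes tested, those 3 fell, 1 (Cd247) rose, and the median was -0.39. They moved with a higher level of Klrb1c, which natural killer cells express too, and the part of other cells in the result was not tested. The S1pr5 sums held 30914 and 167413 UMIs in sgArid1a and 151533 and 161736 UMIs in sgScr. The Cx3cr1 sums held 88344 and 238114 UMIs in sgArid1a and 75750 and 77958 UMIs in sgScr. For their numbers of cells, the Cx3cr1 sums thus held more UMIs per cell in every sample. The comparison was not repeated with thinned cells, so the part of depth in it was not tested. edgeR called 161 of 2283 genes (7.05%), 53 higher (2.32%) and 108 lower (4.73%) with S1pr5, with a median of -0.015 over all genes tested. Without the second sgArid1a sample 57 were called, and without the second sgScr sample 104.

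Zeb2 had 226 and 430.1 CPM in sgArid1a and 396 and 383 CPM in sgScr members with S1pr5, against 90.6 and 63.0 CPM in sgArid1a and 92.4 and 51.3 CPM in sgScr members with Cx3cr1 alone. All 4 values with S1pr5 were above all 4 with Cx3cr1 alone (log2 difference 2.34 ± 0.26 (SE), edgeR adjusted p = 5.13e-10). Klf2 had 1488 and 1678 CPM in sgArid1a and 1260.5 and 1107 CPM in sgScr members with S1pr5, against 260.3 and 441 CPM in sgArid1a and 594 and 526 CPM in sgScr members with Cx3cr1 alone, also without overlap (1.54 ± 0.16 (SE), edgeR adjusted p = 9.52e-11). Gzma had 679 and 2987 CPM in sgArid1a and 2059 and 1663 CPM in sgScr members with S1pr5, against 1155 and 67.2 CPM in sgArid1a and 488 and 257 CPM in sgScr members with Cx3cr1 alone. It was higher with S1pr5 in 3 of 4 samples and lower in the first sgArid1a sample (log2 difference 2.37 ± 0.30 (SE), edgeR adjusted p = 2.97e-08), and it stood at 3.51 without the first and 1.39 without the second sgArid1a sample. Klrb1c, Kcnj8, Rasgrp2 and Ccl5 rose with S1pr5 by log2 3.02, 2.54, 1.64 and 0.88. Dtx1 rose by 1.76 but was not called without the first sgScr sample (1.59). Gzmm and S1pr4 rose by 1.54 and 1.08 and were not called without the second sgArid1a sample, at 1.02 and 1.02.

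Exhaustion genes were lower in members with S1pr5. Of 8 inhibitory receptor and exhaustion genes tested, 6 were lower and none higher, with a median of -1.93. Pdcd1 had 64.7 and 83.6 CPM in sgArid1a and 59.4 and 49.5 CPM in sgScr members with S1pr5, against 351 and 319 CPM in sgArid1a and 356 and 539 CPM in sgScr members with Cx3cr1 alone (log2 difference -2.63 ± 0.26 (SE), edgeR adjusted p = 2.51e-11). No value overlapped. Tox, Tigit and Lag3 fell by 1.85, 2.01 and 2.01 on the log2 scale. Without the second sgArid1a sample, Lag3 stood at -3.69. Nrgn (neurogranin, a calmodulin-binding protein best known from neurons), Nrn1 and the chemokine Xcl1 fell by 4.33, 3.99 and 3.77. Nrgn was at 0 in 3 of the 4 S1pr5 sums and had 679 and 403 CPM in sgArid1a and 198 and 154 CPM in sgScr members with Cx3cr1 alone, so its fitted value is no bound; without the second sgArid1a sample it was -7.46. Rgs16, Tnfrsf4 (OX40) and Litaf fell by 3.52, 2.17 and 2.40, and Cxcr6 by 1.32. Prf1 (0.52 ± 0.27 (SE), edgeR adjusted p = 0.297) and Itgb1 (-0.17 ± 0.20 (SE), edgeR adjusted p = 0.739) did not pass.

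The 49 members with Klrg1 alone were few (9 and 15 in sgArid1a, 13 and 12 in sgScr). Against them, the 321 members with Cx3cr1 or S1pr5 UMIs differed in 18 of 2237 genes (0.805%), 8 higher (0.358%) and 10 lower (0.447%), 3 of which were the rule genes; without the first sgArid1a sample 28 were called. Klf2 rose by 1.40 ± 0.20 (SE), edgeR adjusted p = 6.45e-06, with 143 and 405 CPM in sgArid1a and 504 and 216 CPM in sgScr members with Klrg1 alone, below the values with S1pr5 in every sample. Ccl5 (0.75), Ripor2, a regulator of cell polarity and migration (2.08), and Nrgn (2.18) rose as well. Itgb1 (1.17), Ahnak (0.75), Gzmk (-0.98), Gzmb (-0.78) and Plac8 (-1.24) were called too, but not without the second sgArid1a sample, at 1.03, 0.59, -0.82, -0.48 and -0.99. Without the first sgScr sample Ahnak (0.72) and Gzmb (-0.71) were not called either. Gapdh and Ly6a fell by 0.69 and 0.93, but with no filter on low counts they were not called, at -0.46 and -0.70, and neither were Gzmk (-0.76) and Gzmb (-0.53). Zeb2 (1.28 ± 0.34 (SE), edgeR adjusted p = 0.059) and Gzma (0.62 ± 0.19 (SE), edgeR adjusted p = 0.168) did not pass. Tnfrsf4 was lower (log2 difference -1.67 ± 0.38 (SE), edgeR adjusted p = 0.0153). Foxp3 was lower in the second sgArid1a sample (log2 ratio -4.065) and higher in 2 samples. This comparison was not repeated without the members with Foxp3 or Cd4 UMIs.

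**Figure D4:**
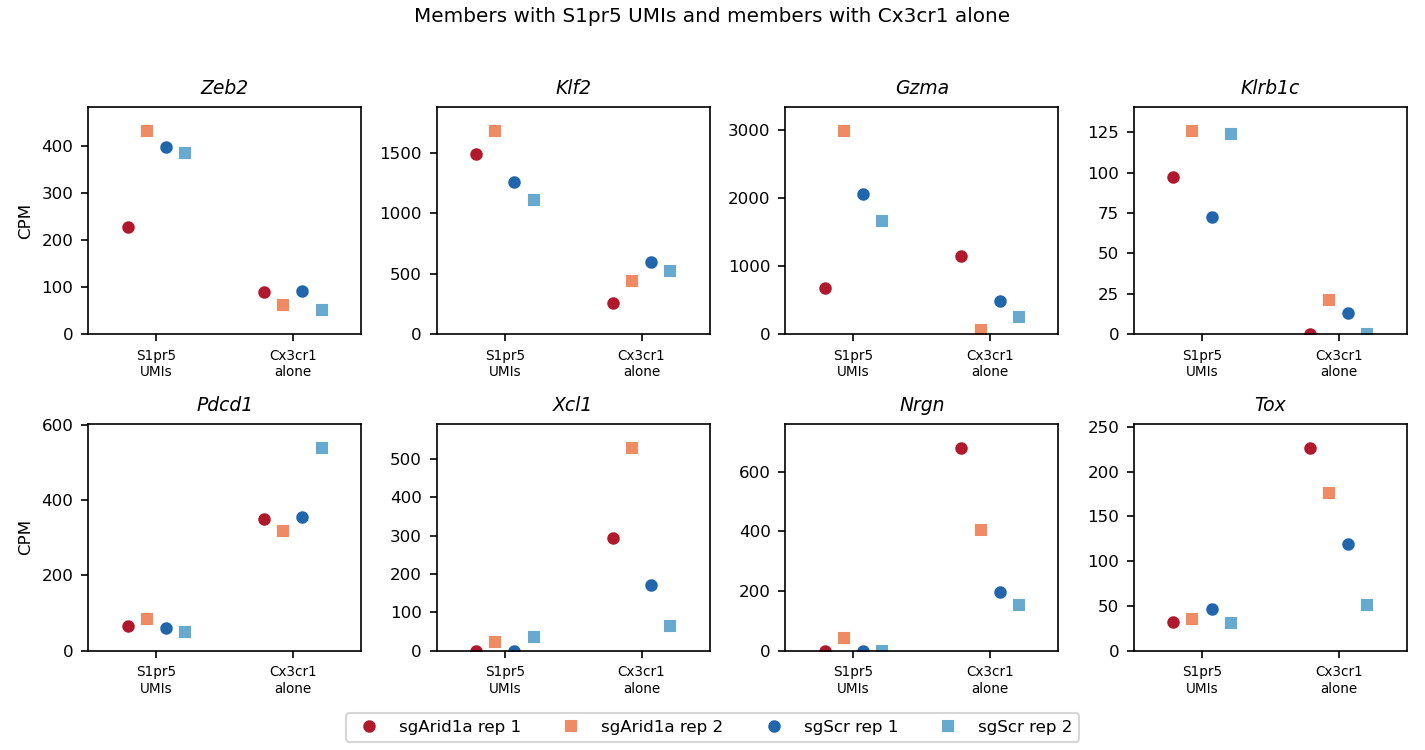
CPM of 8 genes on linear axes in members with S1pr5 UMIs and in members with Cx3cr1 alone, 1 point per sample. Zeb2 and Klf2 were higher and Pdcd1 lower with S1pr5 in all 4 samples, while Gzma was higher in 3 of 4.

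The study's own comparison, sgArid1a against sgScr, was then made within the members. Members from sgArid1a tumours had more transcripts of some activation and exhaustion genes and of some inflammatory chemokines. Pdcd1, Tox, granzymes and Zeb2 did not pass the test. Arid1a itself had 70.8 and 80.3 CPM in the sgArid1a and 83.0 and 124 CPM in the sgScr members, which do not overlap (log2 difference -0.36 ± 0.28 (SE), edgeR adjusted p = 0.601). Without the second sgScr sample the difference was 0.0082. A guide acts on DNA and may leave the transcript in place, and the labels do not say which cells carried it. These values therefore cannot check the labels. edgeR called 70 of 4517 genes (1.55%), 47 higher (1.04%) and 23 lower (0.509%), and the median over all genes was 0.00114 on the log2 scale. DESeq2 called 32. In all 70 the 2 sgArid1a values lay on one side of both sgScr values. A call on 2 against 2 samples makes this likely, so it adds no support. The count depended on which cells entered. It was 110 without the second and 100 without the first sgArid1a sample, 84 and 49 without the first and second sgScr sample, 27 without the members that held Foxp3 or Cd4 UMIs, and 4 with the 182 members that had at least 2 of the 3 marker genes.

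Tnfrsf9 and Nrgn were the 2 named genes called under every alternative that tested them. Tnfrsf9 (ENSMUSG00000028965, chr4:150914562-150946102, plus strand), the costimulatory receptor 4-1BB that antigen receptor signals induce, had 256 and 219 CPM in the sgArid1a and 23.7 and 34.6 CPM in the sgScr members. Both sgArid1a values were above both sgScr values (log2 difference 3.03 ± 0.29 (SE), edgeR adjusted p = 7.29e-07). Nrgn had 359.6 and 229.8 CPM in the sgArid1a and 47.4 and 37.5 CPM in the sgScr members, again without overlap (2.74 ± 0.29 (SE), edgeR adjusted p = 1.83e-06). Lag3, an inhibitory receptor for MHC class II, had 218 and 163 CPM in the sgArid1a and 83.0 and 37.5 CPM in the sgScr members (1.64 ± 0.29 (SE), edgeR adjusted p = 0.00192). The groups did not overlap, and the difference was 1.93 and not called with at least 2 marker genes. Of 10 inhibitory receptor and exhaustion genes tested, 6 rose and none fell, with a median of 1.25. They were Tnfrsf9, Lag3, Rgs16 (2.19), Ctla4 (2.12), Nr4a2 (2.11) and Tigit (0.85). Pdcd1 (0.24 ± 0.19 (SE), edgeR adjusted p = 0.608) and Tox (0.71 ± 0.26 (SE), edgeR adjusted p = 0.191) were among those not called. Rgs16 and Tigit were not called without the members with Foxp3 or Cd4 UMIs, at 2.21 and 0.80, and with thinned cells the sign of Tigit turned (-0.36). Ctla4 was not called without the second sgArid1a sample (0.81), Nr4a2 without the first or second sgArid1a or the second sgScr sample (2.03, 2.39 and 1.74), and Tigit without the first sgScr sample (0.63).

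Genes that regulatory T cells also express were higher in sgArid1a members. Foxp3 had 21.8 and 24.3 CPM in the sgArid1a and 2.97 and 0 CPM in the sgScr members, on 4 and 13 UMIs in sgArid1a and 1 and 0 UMIs in sgScr, and it was at 0 in every sum of members with S1pr5. Ikzf2 (Helios) had 65.4 and 82.2 CPM in the sgArid1a and 11.9 and 23.1 CPM in the sgScr members (2.17 ± 0.41 (SE), edgeR adjusted p = 0.00379), and Tnfrsf4 had 76.3 and 254 CPM in the sgArid1a and 38.6 and 54.9 CPM in the sgScr members (2.12 ± 0.35 (SE), edgeR adjusted p = 0.00158). Both were highest in the second sgArid1a sample, which also had the most Foxp3, and Tnfrsf18 (GITR) rose by 0.98. Foxp3 or Cd4 UMIs were in 1 of 57 and 8 of 119 sgArid1a members, so the 4 Foxp3 UMIs of the first sample came from 1 cell. Without the members with Foxp3 or Cd4 UMIs the 3 genes were not called, at 1.95, 1.24 and 0.91. Without the second sgArid1a sample they were not called either, at 1.99, 0.82 and 0.71, nor was Tnfrsf18 without the first sgScr sample (0.70). Tnfrsf9 and Nrgn stood at 2.70 and 2.82 without the members with Foxp3 or Cd4 UMIs, both called.

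Chemokines rose in the sgArid1a members. Xcl1, which recruits cross-presenting dendritic cells, had 185 and 252 CPM in the sgArid1a and 41.5 and 77.9 CPM in the sgScr members (2.0 ± 0.26 (SE), edgeR adjusted p = 5.65e-05). Ccl4 had 855 and 738 CPM in the sgArid1a and 371 and 303 CPM in the sgScr members (1.29 ± 0.17 (SE), edgeR adjusted p = 5.39e-05) and Ccl3 had 218 and 155 CPM in the sgArid1a and 68.2 and 63.5 CPM in the sgScr members (1.47 ± 0.26 (SE), edgeR adjusted p = 0.00222). The sgArid1a values of the 3 genes lay above the sgScr values. With at least 2 marker genes the sign turned for Ccl3 (-0.68) and Ccl4 (-0.45), and neither was called without the Foxp3 or Cd4 members, at 1.19 and 0.93. With thinned cells the sign of Ccl4 turned as well (-0.17). Of 9 chemokines and cytokines tested, 4 rose, the fourth being Ltb (0.80), which with thinned cells stood at 1.03 and was not called. Ccl5, by contrast, was lower in both sgArid1a samples (15687 and 19449 CPM, against 28199 and 27192 CPM in sgScr) but did not pass (-0.59 ± 0.15 (SE), edgeR adjusted p = 0.0522). Of 18 type I interferon-stimulated genes tested, only Ifi27l2a rose (1.13), beside a list median of 0.28, and of 20 interferon-gamma response genes only Psme2 (0.77), which was not called without the first sgScr sample (0.76). Isg15 had 76.3 and 172 CPM in the sgArid1a and 128 and 11.5 CPM in the sgScr members, which overlap (1.11 ± 0.43 (SE), edgeR adjusted p = 0.225). Dusp1 and Junb, of the immediate-early response that tissue digestion can raise, rose by 1.96 and 0.85, and of the 15 heat shock and dissociation genes tested 3 rose, the other being Jund. Junb was not called without the second sgScr sample (0.64). Gapdh, a glycolytic enzyme, rose by 0.92.

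Few genes fell. Itga4, Ahnak, a large scaffold protein, Adgre5 (CD97, an adhesion receptor) and Txnip, a brake on glucose uptake, fell by 0.83, 0.83, 0.99 and 0.99 on the log2 scale. Itga4 had 278 and 366 CPM in the sgArid1a and 658 and 586 CPM in the sgScr members, without overlap, and was not called without the first sgScr sample (-0.76). The other named falls were each lost without at least 1 sample. Ccr2 (-1.06) was not called without the second sgArid1a (-0.96) or first sgScr sample (-0.85). Klf3 (-1.03) was not called without the second sgArid1a (-0.92) or second sgScr sample (-0.90). Ptpre (-1.81), Gmip (-1.66), Wapl (-1.30) and Kcnab2 (-1.23) were not called without the second sgArid1a sample (-1.25, -2.49, -1.08 and -0.71), the first sgScr sample (-1.83, -1.62, -1.27 and -1.15) or the second (-1.73, -1.65, -1.29 and -1.25). Irf8 (1.23), a rise, was not called without the first sgArid1a (1.09), first sgScr (1.33) or second sgScr sample (1.16).

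Gzma, Zeb2 and Gzmb, which were higher in members than in other cells, did not pass between the groups, whereas Itga4, Ccr2, Ahnak, Ccl4, Lag3 and Tnfrsf9 were called in both comparisons. Gzma had 1602 and 1209 CPM in the sgArid1a and 1364 and 1109 CPM in the sgScr members, which overlap (log2 difference 0.23 ± 0.16 (SE), edgeR adjusted p = 0.555). Zeb2 had 92.6 and 192 CPM in the sgArid1a and 243 and 228 CPM in the sgScr members, lower in both sgArid1a samples and lowest in the first (-0.48 ± 0.22 (SE), edgeR adjusted p = 0.316). Gzmb was higher in both sgArid1a samples, at 550.3 and 450.2 CPM, against 371 and 344 CPM in sgScr (0.52 ± 0.17 (SE), edgeR adjusted p = 0.151), and Ly6c2 did not pass (-0.51 ± 0.18 (SE), edgeR adjusted p = 0.194). Without the second sgArid1a sample these 3 were called, at -1.22, 0.74 and -1.03. Of 13 cytotoxic granule genes and 5 lectin receptors tested, none was called by edgeR. The makeup of the members also differed between groups, since 38.6 and 36.1% of the sgArid1a and 19.6 and 18.6% of the sgScr members had Cx3cr1 alone, the subset with more Pdcd1, Lag3, Nrgn and Xcl1. Among the members with S1pr5 UMIs, Tnfrsf9 had 32.3 and 95.6 CPM in sgArid1a and 0 and 12.4 CPM in sgScr. Among those with Cx3cr1 alone, it had 419 and 218 CPM in sgArid1a and 0 and 64.1 CPM in sgScr. In both subsets the sgArid1a values were the higher ones, but the first sgScr value was 0 in each. The values with S1pr5 rest on few UMIs. Those sums held 30914 and 167413 UMIs in sgArid1a and 151533 and 161736 UMIs in sgScr. Lag3 with Cx3cr1 alone had 351 and 202 CPM in sgArid1a and 198 and 89.8 CPM in sgScr. The part of the makeup in the differences between groups was not tested further.

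**Figure D5:**
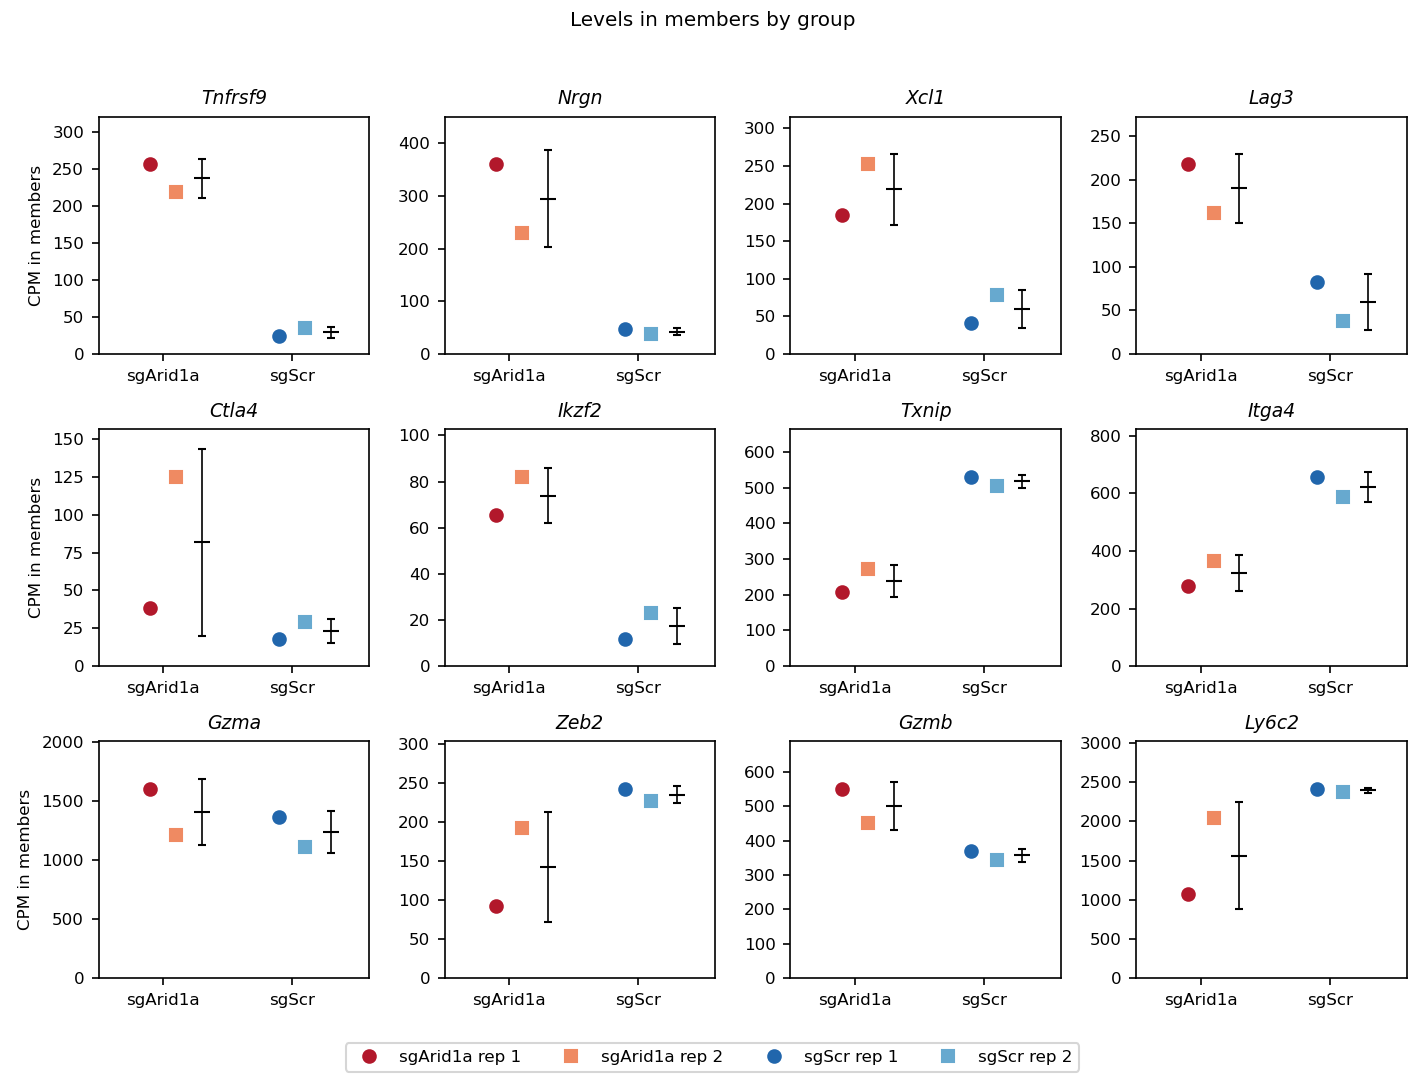
CPM in members on linear axes, sgArid1a left of sgScr, 1 point per sample with the mean and SD of the 2 samples beside them. The last 4 genes did not pass the test between the groups. Tnfrsf9 was 256 and 219 CPM in sgArid1a and 23.7 and 34.6 CPM in sgScr, while the 2 groups overlapped for Gzma.

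Whether the group difference was the same in members as in the cells around them was tested with an interaction term. In the other Havcr2-zero non-cycling cells, where the sums are far deeper, edgeR called 4088 of 12075 genes (33.9%). Of the 70 genes called in members 62 were called there, 61 of them in the same direction. The difference between the 2 effects was called for 48 of 11436 genes (0.42%), 10 higher (0.0874%) and 38 lower (0.332%) in members, 11 of them receptor segments. This fit too estimated 1 spread shared by all genes, so its p-values are very small and do not measure the spread of each gene between samples. Effector genes were on the lower side. Zeb2 stood at -0.48 in members and 0.85 in other cells, a difference of -1.28 ± 0.28 (SE), edgeR adjusted p = 0.00244. Gzmb stood at 0.52 in members and 1.93 in other cells (-1.31 ± 0.14 (SE), edgeR adjusted p = 9.10e-17), and Ly6c2, an effector and memory surface protein, at -0.51 in members and 0.93 in other cells (-1.42 ± 0.14 (SE), edgeR adjusted p = 2.21e-19). These genes were higher in sgArid1a among the other cells and not called among members. Gzma, Ccl5, Ifng and Cxcr3 followed the same pattern, with differences of -1.0, -1.12, -1.44 and -1.05. Tnfrsf9, Tnfrsf4 and Ctla4 were on the other side, with differences of 1.35, 1.33 and 1.78. Without the first sgArid1a sample 3 genes were called, without the second 2, and without the second sgScr sample 75. For Ctla4, Tnfrsf4 and Tnfrsf9 the difference was not called without the Foxp3 or Cd4 members, at 0.92, 0.47 and 1.03.

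Receptor use was read from the leading Trbv segment of a cell, required to have 2 or more UMIs and to exceed all others. It could be read in 45 of 57 and 93 of 119 sgArid1a members and 61 of 97 and 74 of 97 sgScr members. No single segment dominated. Trbv16 was the most frequent in 3 of the 4 samples, tied with Trbv19 in one of them, at 17.8 and 12.9% in sgArid1a and 14.8 and 13.5% in sgScr members, against 9.14 and 7.91% in sgArid1a and 9.02 and 8.76% in sgScr other cells, so it was higher in members in 4 of 4 samples. Trbv3 was 13.3 and 17.2% of sgArid1a and 3.28 and 5.41% of sgScr members. Trbv12-1 was 0 and 5.38% of sgArid1a and 9.84 and 12.2% of sgScr members. Trbv13-1 and Trbv20, paired after earlier results of these data, together made up 17.8 and 17.2% of the sgArid1a and 8.20 and 5.41% of the sgScr members with a call, against 13.5 and 11.1% in sgArid1a and 10.2 and 10.5% in sgScr other cells. The difference of 10.7 percentage points gave an exact two-sided permutation p of 0.33, and it came from Trbv20, at 6 of 45 and 7 of 93 in sgArid1a, against 0 of 61 and 0 of 74 in sgScr, counts of 0 that allow up to 4.92 and 4.05%. In the thinned cells the 2 segments made up 16.7 and 5.56% of the sgArid1a and 14.7 and 10.3% of the sgScr members. Without the Trbv13-1 and Trbv20 members 18 genes were called between the groups, against 70 with them, and Tnfrsf9 stood at 2.77, still called. Doublets are among the cells with 2 Trbv segments. Such cells made up 19.3 and 13.4% of the sgArid1a and 7.22 and 12.4% of the sgScr members. Of the other cells they were 494 of 8727 and 1099 of 9991 in sgArid1a and 681 of 6920 and 606 of 6431 in sgScr. In the first sgArid1a sample this was 5.66% of the other cells, against 19.3% of members. Only in the first sgScr sample was the share lower in members, at 7.22%, against 9.84% of the other cells. Without the cells with 2 Trbv segments 58 genes were called between the groups, 49 of them among the 70.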

How the data were processed

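Single-cell 5-prime libraries from 4 samples of sorted tumour CD8 T cells were used as deposited. The authors deposited filtered matrices of UMI counts per gene and cell, with no normalization; Cell Ranger 6.0.1 is named per the file headers, but Cell Ranger 3.0.2, Seurat and mm10 per the submitters' processing notes. How doublets were treated before deposit is not stated, and no doublet caller was run. The members and gene lists were chosen with earlier results of these data known.

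Raw counts were summed per sample and class and tested with edgeR 4.0.16 in R 4.3.3 (TMM factors, filterByExpr, quasi-likelihood F test, Benjamini-Hochberg adjusted p under 0.05), with the sample as a covariate where classes of 1 sample were compared. CPM are counts per 1000000 UMIs of the summed cells. All edgeR fits pooled the spread over genes to some degree. The prior degrees of freedom, the weight of this pooled spread, were 21.9 between the groups and 31.4 against Havcr2-positive cells. They were 51.8 for S1pr5 against Cx3cr1 alone and 35.7 for the comparison with Klrg1 alone. Alternatives were DESeq2 1.42.0, other size factors, no filter, stricter members, cells thinned to 1500 UMIs with a fixed seed, and leaving out each sample. Steps were tested on simulated data. Shares have 95% Wilson intervals, and a count of 0 allows 3 counts of the total. Of 309 listed symbols in 22 lists, 306 matched. Gene positions are from GENCODE M21 (GRCm38). Genes were named if among the 8 largest rises or falls of at least 20 CPM called and alike in all samples, if among the 3 smallest p-values of a list, or if on a list of genes always given; any others were chosen after their values were seen. TCR sequences of the receptor kit were not used here. Some items are not reported here.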

Additional observations from a re-analysis of the deposited data

Results flagged for a closer look

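The sgArid1a effect differed between members and the other Havcr2-zero non-cycling cells for 18 named genes, by edgeR's test of the interaction term. Given as the log2 effect in members minus that in other cells, it was lower in members for Ccl1 (-2.53), Ifng (-1.44), Ly6c2 (-1.42), Gzmb (-1.31), Zeb2 (-1.28), Ccl5 (-1.12), Cxcr3 (-1.05), Slamf7 (-1.03), Gzma (-1.0), Klrk1 (-0.92), Ahnak (-0.74) and S100a4 (-0.65), and higher for Ctla4 (1.78), Tnfrsf9 (1.35), Tnfrsf4 (1.33), Nfkbia (0.86), Plac8 (0.83) and Rps26 (0.61). Without the first sgArid1a sample 3 genes of all tested were called and without the second 2, and each of the 18 lost its call under at least 1 alternative. Ly6c2 was the only one of them still called without the second sgArid1a sample. The cause of the differences was not tested.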

How the results depend on the processing

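Most values kept their direction. Of the values of named genes under the alternatives, 1803 kept direction and call, 248 lost a call, 10 gained one and 15 turned sign. Between sgArid1a and sgScr members 70 genes were called, against 120 without a filter on low counts, 32 with DESeq2, 24 with at least 3 marker UMIs, 3 with thinned cells, 4 with at least 2 marker genes, 18 without Trbv13-1 and Trbv20 members, 27 without Foxp3 or Cd4 members and 49 to 110 without 1 sample in turn. Members against the other cells gave 1370 calls, against 820 with DESeq2, 720 with at least 3 marker UMIs, 496 with thinned cells and 817 with at least 2 marker genes. Members against Havcr2-positive cells gave 1574 calls, against 987 to 1550 without 1 sample in turn. S1pr5 against Cx3cr1-alone members gave 161 calls, against 92 without the filter and 57 to 113 without 1 sample. Cx3cr1/S1pr5 against Klrg1-alone members gave 18 calls, against 32 without the filter and 17 to 28 without 1 sample. The difference of effects gave 48 calls, against 16 with at least 2 marker genes and 2 to 75 without 1 sample. The Trbv13-1 and Trbv20 difference was 10.7 points and with thinned cells -1.41.

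Signs turned as follows, on the log2 scale. Between the groups, with thinned cells Ccl4 was -0.17 and Tigit -0.36, and with at least 2 marker genes Ccl3 was -0.68 and Ccl4 -0.45. Arid1a ranged from -0.63 to 0.0082 without 1 sample. Against the other cells, with thinned cells Ccl3 was -0.19 and Pdcd1 -0.29, and Pdcd1 was -0.18 with at least 2 marker genes. Klf2, not called, was -0.033 without the filter, -0.083 in members with a Trbv call and no other-lineage UMI, -0.016 against cells with 0 marker UMIs, and -0.14 to 0.079 without 1 sample. Itgb1, not called between S1pr5 and Cx3cr1-alone members, ranged from -0.42 to 0.29. For the difference of effects Ccl1 was 6.54 with at least 2 marker genes, and Tnfrsf4 ranged from -0.20 to 1.80 without 1 sample. The causes were not tested.

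With a replicate block 63 genes were called between the groups, 55 of them shared with the 70. Deviations of same-numbered samples correlated at 0.0157 over genes in members and at -0.0418 in all kept cells. With 2 samples per group this cannot tell whether same-numbered samples share more than a number. Member sums of 183529 to 535287 UMIs limit what can be called for low genes.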
